A study of Homo sapiens with 18 samples.

Results

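The genes described here are the translation initiation and elongation factors, measured as mRNA, as ribosome footprints and as the ratio of both in IMR90, human fetal lung fibroblasts with a finite life span in culture. They were chosen by name: gene symbols that begin with EIF or EEF and a digit, leaving out the kinases and binding proteins whose symbols begin with EIF2AK, EIF4EBP or EEF2K, and with at least 100 coding sequence (CDS) reads summed over the 9 Ribo-seq libraries. Of 38716 gene symbols in the tables, 68 matched the name and 53 of these passed the read minimum. By symbol alone, 46 are called initiation factors (EIF) here and 7 elongation factors (EEF). By role, EEF1E1 was grouped apart from eEF1 and eEF2, and EIF4A3, EIF4ENIF1 and EIF6 apart from the initiation complexes. The lowest members were EIF2D with 103 reads and EIF4ENIF1 with 110 reads, and the nearest symbols below the limit were EEF1AKNMT with 93.5 reads and EIF1AD with 66 reads. Of the 15 symbols below the limit, 7 had no CDS read. The rule uses no fold change or test, but it was set with earlier results of these data known.

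In Ribo-seq, nuclease trims each mRNA to the pieces covered by ribosomes, and these footprints are sequenced. Poly(A)-selected RNA of the same lysates gave the mRNA-seq libraries. There were 3 conditions with 3 replicates in each assay. Young cells were proliferating IMR90 at low passage, old cells were IMR90 at high passage in replicative senescence, and ICM cells were low-passage IMR90 given inflachromene, a small molecule that binds HMGB1 and HMGB2. All cells were lysed with cycloheximide, which holds ribosomes on the mRNA. Per the methods, the replicas of each condition were grown independently.

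Initiation factors bring the small ribosomal subunit and the initiator tRNA to the start codon. The complex eIF4F binds the cap and unwinds the leader, eIF2 carries the initiator tRNA, eIF2B recharges eIF2 with GTP, eIF3 holds the small subunit together with its partners, and eIF1, eIF1A, eIF5 and eIF5B choose the start codon and join the large subunit. Elongation factors then work at every codon: eEF1A delivers aminoacyl-tRNA, the eEF1B complex (EEF1B2, EEF1D and EEF1G) reloads eEF1A with GTP, eEF2 moves the ribosome forward by a codon, and eIF5A, named as an initiation factor, helps the ribosome past stretches that are slow to join. Several of these mRNAs, those of eEF1A and eEF2 above all, begin with a C and a run of pyrimidines, the terminal oligopyrimidine (TOP) motif through which mTOR signalling controls their translation.

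Such a start was looked for in RefSeq's annotated promoters (GRCh38.p14), as a C at the annotated transcript start followed by at least 4 further C or T bases on the transcript's strand. Of 27305 symbols, 5.14% had it at a start. Of the 53 factors, 44 had a promoter entry and 13 of these had such a start. The sequences below run from 10 bases before the start to 20 bases from it, 5′ to 3′ on the transcript's strand, with the pyrimidine run in capitals. They are shown for the members whose footprint to mRNA ratios are described below, and for EIF3F, whose mRNA fell most in ICM cells. EEF1A1, EEF2, EIF4B, EEF1B2 and EIF3F have the run, while EEF1G, EIF4G2 and EIF5 do not have it at the start shown.
EEF1A1, chr6:73521013-73521042, minus strand: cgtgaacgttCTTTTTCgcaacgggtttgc
EEF2, chr19:3985444-3985473, minus strand: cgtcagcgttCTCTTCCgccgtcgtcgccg
EIF4B, chr12:53006446-53006475, plus strand: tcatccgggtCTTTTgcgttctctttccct
EEF1B2, chr2:206159885-206159914, plus strand: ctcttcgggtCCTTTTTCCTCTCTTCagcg
EIF3F, chr11:7987327-7987356, plus strand: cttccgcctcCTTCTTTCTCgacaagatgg
EEF1G, chr11:62573872-62573901, minus strand: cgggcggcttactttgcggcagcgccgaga
EIF4G2, chr11:10807977-10808006, minus strand: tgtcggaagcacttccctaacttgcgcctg
EIF5, chr14:103334227-103334256, plus strand: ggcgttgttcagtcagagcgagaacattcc

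The shared facts of the libraries bear on every value. CDS reads ran from 46239 to 1718521 per Ribo-seq library, and mRNA-seq reads in the 5′ UTR, CDS and 3′ UTR from 7902427 to 14144455 per library. The fibroblast markers COL1A1, COL1A2, COL3A1, VIM, PDGFRB, DCN, LUM and THY1 were present in every library (at least 65.1 CPM in mRNA-seq, CPM being reads scaled to a fixed library size), whereas PTPRC, EPCAM, CDH1, PECAM1 and CDH5 stayed at 1.05 CPM or lower there. In Ribo-seq 3 libraries stood apart: only 34.4% of the reads of young replicate 1 and 15.0% of those of old replicate 2 lay in the CDS, against 54.7% to 88.8% elsewhere, and ICM replicate 3 was the shallowest. The shallow libraries also held footprints of genes that were high in another condition. Added up, the footprints of 60 genes with high levels in young cells made up 1907 CPM in ICM replicate 3 and 416 CPM in ICM replicate 2 against 131 CPM in ICM replicate 1, while their mRNA in these lysates was between 45.4 and 48.0 CPM. For 14 genes high in ICM cells the Ribo-seq level was 673 CPM in young replicate 1 and 815 CPM in old replicate 2, and at most 96.1 CPM in the other young and old libraries. Counts of calls are therefore also given without these 3 lysates, an alternative chosen after the data were seen.

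Some factors have near-identical copies, between which reads were divided. EIF3C and EIF3CL, EIF5A and EIF5AL1, and EIF2S3 and EIF2S3B drew nearly equal or shared reads, so that each pair counts 1 signal under 2 symbols. EIF1AX and its copy EIF1AY did not draw nearly equal reads, and how much of their signal is shared was not tested. EIF1AY is counted among the factors but not described singly. EEF1A1 and EEF1A2, EIF4A1 and EIF4A2, and EIF1 and EIF1B are also alike in sequence. All of these are uncertain as single genes.

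The levels differed widely between factors. Per kilobase of coding length, EEF1A1 was the highest of the 52 factors described singly in both assays, with 9374 ± 796 CPM per kb of mRNA-seq CDS reads and 7089 ± 1148 CPM per kb of footprints in young cells (mean ± SD, n = 3). In footprints it was followed by EIF1, which guards the choice of the start codon, at 1632 ± 138, EEF2 at 1428 ± 111 and EIF5A at 1344 ± 163 CPM per kb, of which EEF2 and EIF5A did not differ beyond their SDs. The helicase EIF4A1 stood at 961 ± 187 CPM per kb and its near copy EIF4A2 at 156 ± 21.6. The eIF3 subunits lay between 118 and 377 CPM per kb, and the eIF2B subunits between 17.0 and 54.8. Among the cap complex, the scaffold EIF4G1 had 120 ± 7.09 CPM per kb and the cap-binding EIF4E 228 ± 92.5.

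Footprints did not follow mRNA equally. Over 4618 genes, the median ratio of footprints to mRNA-seq CDS reads was 1.94 in young cells, with 10% of genes below 0.974. The lowest ratios among the factors belonged to EEF1G (0.505), EIF2D (0.543), EIF4G2 (0.582) and EEF1A1 (0.756). The scaffold of the eEF1B complex, the eIF4G-like factor EIF4G2 and the most abundant factor thus had few footprint reads for their mRNA reads in young cells. How the division of reads between copies bears on these ratios was not tested. Per length, EEF1G had rank 2 by mRNA and rank 8 by footprints, and EIF4G2 rank 6 by mRNA and rank 14 by footprints. EEF1B2 had a ratio of 1.35 and EEF1D of 1.07, both above EEF1G of the same complex. The highest ratio, 9.01, was that of EEF1A2, whose footprint count was 0.427% to 0.618% of that of its near copy EEF1A1 in young cells and whose mRNA count was 0.0340% to 0.0496%. A small part of the EEF1A1 reads placed on the copy would change that ratio, which was not tested.

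**Figure D1:**
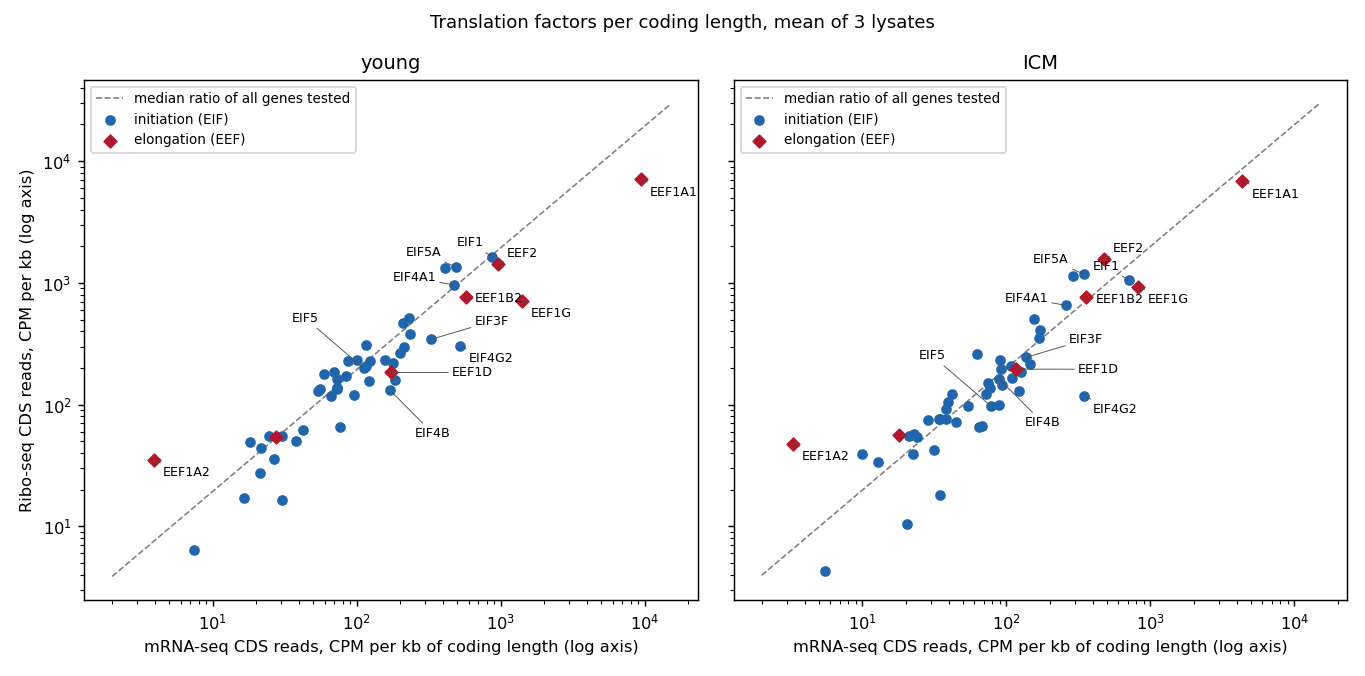
Ribo-seq CDS level against mRNA-seq CDS level, both in CPM per kb of coding length on log axes, for each factor in young cells (left) and ICM cells (right). Points are means of 3 lysates, circles EIF and diamonds EEF, and the dashed line is the median ratio of all genes tested, 1.94 in young and 1.98 in ICM cells. EEF1A1, EEF1G and EIF4G2 lie below the line in young cells, and EIF4G2 stays far below it in ICM cells.

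The elongation factors took up less of the mRNA pool in ICM and old cells than in young cells, while their share of the footprints overlapped between conditions. The 7 EEF genes made up 2.11%, 2.17% and 1.96% of the mRNA-seq reads of young lysates, 1.10%, 1.14% and 1.03% in old lysates and 1.06%, 1.09% and 0.980% in ICM lysates. Their share of CDS footprints was 1.29%, 1.43% and 1.51% in young, 1.10%, 1.28% and 1.34% in old and 1.40%, 1.49% and 1.47% in ICM cells. All old and ICM lysates thus lay below all young lysates in mRNA, while the ranges overlapped in footprints. The share of the 46 EIF genes was lower in both assays. It was 1.08% to 1.14% of mRNA reads in young and 0.801% to 0.883% in the other lysates, and 1.13% to 1.16% of footprints in young and 0.807% to 0.930% in the other libraries. Summed footprints of elongation factors per footprint of initiation factors were 1.14 to 1.30 in young, 1.35 to 1.59 in old and 1.58 to 1.74 in ICM libraries, and the same ratio of mRNA reads was 1.81 to 1.97, 1.21 to 1.29 and 1.22 to 1.34. EEF1A1 holds most of the EEF reads and sets much of these sums. Reads are shares of a library, so less of an mRNA per cell and more of all others cannot be told apart, nor can fewer cells with the mRNA and less of it in each.

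**Figure D2:**
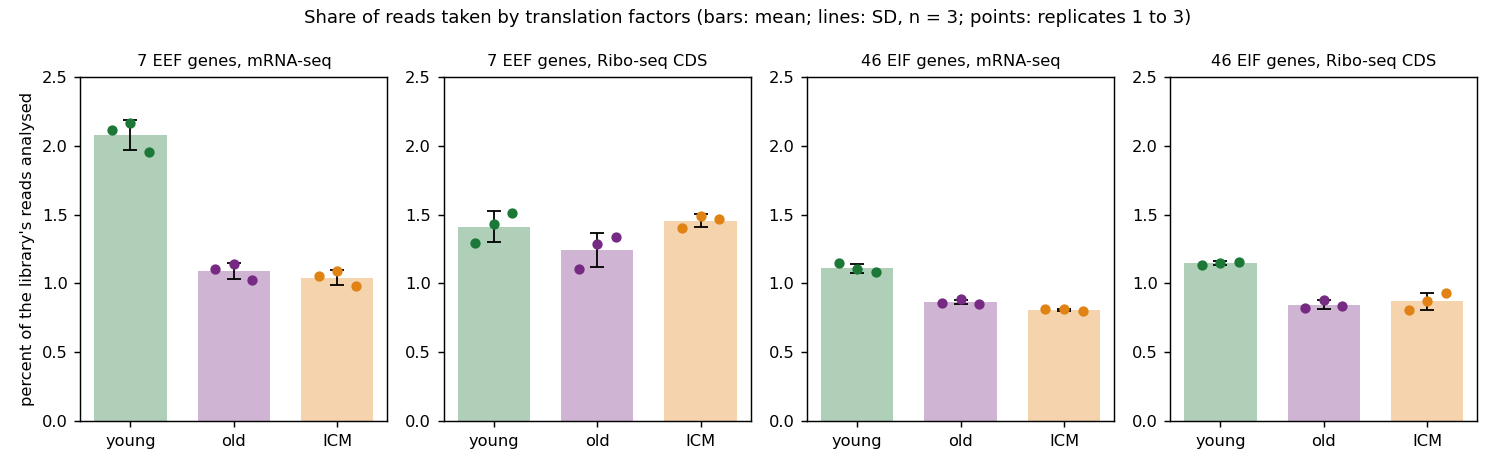
Percent of the reads analysed that fell in the 7 EEF genes and in the 46 EIF genes, in mRNA-seq and in Ribo-seq CDS reads, by condition. Bars are means, lines the SD and points replicates 1 to 3. The EEF share of mRNA is near 2.08% in young and 1.04% in ICM cells, and the EEF share of footprints is 1.41% and 1.46%.

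The effect of the HMGB inhibitor was read from ICM against young cells, and that of replicative senescence from old against young cells. Both use the same 3 young lysates, so their values are set side by side and their likeness was not measured. In mRNA-seq all 53 factors were tested (edgeR quasi-likelihood test, Benjamini-Hochberg adjusted p under 0.05 over 13173 genes). In ICM vs young, 43 fell, where 36.1% of all genes tested were called down, and 4 rose, where 34.9% were called up. In old vs young, 35 fell (33.7% of all genes) and 5 rose (32.4% of all genes). The median log2 change of the factors was -0.44 (ICM vs young) and -0.27 (old vs young), and that of all genes -0.0070 and -0.015. Among the elongation factors 6 of 7 fell in each comparison (medians -0.62 and -0.55), and among the initiation factors 37 and 29 of 46 fell (medians -0.38 and -0.24). Of the 6 eEF1 and eEF2 genes, without EEF1E1, 5 fell in each comparison (medians -0.68 and -0.60). No factor passed in opposite directions in these comparisons. Without the 3 lysates that stand apart, 40 fell and 4 rose in ICM vs young, and 35 fell and 6 rose in old vs young.

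In Ribo-seq 47 factors passed the filter on low counts. EEF1E1, EIF2B2, EIF2D, EIF4ENIF1, EIF5A2 and the copy EIF1AY did not. Of the 47, 11 fell in ICM vs young, where 12.9% of 4643 genes were called down, and none rose, where 13.7% were called up (edgeR, 1 factor at an unadjusted p under 0.05 and 0 called by DESeq2). All 11 were initiation factors. In old vs young 16 fell (17% of all genes) and 1 rose (19.3% of all genes), the elongation factor EEF1A2. The median log2 change of footprints was -0.42 over the 41 initiation factors tested and 0.077 over the 6 elongation factors for ICM cells, and -0.43 and 0.19 for old cells, each against young. Without the 3 lysates that stand apart, where all 53 factors passed the filter, 18 factors fell in ICM vs young, and 21 fell and 4 rose in old vs young. The part that footprints of genes of another condition have in the full set was not tested. Of the 47 factors, 11 fell in both assays in ICM vs young, 23 fell in mRNA alone and 4 fell in mRNA with a rise in translational efficiency, described in the next paragraph. The share of these patterns over all genes was not computed. Calls were more frequent in mRNA-seq, with 36.1% of 13173 genes down against 12.9% of 4643 in Ribo-seq.

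Translational efficiency, the footprint level relative to the mRNA level of the same lysates, was tested by whether the change between conditions differed between assays. In ICM vs young it rose for 4 of the 47 factors, where 1.36% of 4618 genes were called up. They were EEF2, EEF1G, EEF1A1 and EIF4B. None fell, where 1.02% of genes were called down (edgeR, 5 at an unadjusted p under 0.05, and 1 called by DESeq2). In old vs young it rose for EEF2 and EEF1G, where 0.693% of genes were called up, and fell for none, where 0.736% were called down (3 at an unadjusted p under 0.05, and 0 by DESeq2). Without the 3 lysates that stand apart, 3 rose and 2 fell in ICM vs young, and 4 rose and 1 fell in old vs young. The log2 changes of the 6 elongation factors ran from 0.46 to 1.15 in ICM vs young and from -0.85 (EEF1A2) to 0.98 in old vs young. Their median was 0.85 against young for ICM cells and 0.66 for old cells, and that of the 41 initiation factors 0.11 and 0.024. With the grouping by function, in which the eIF5A genes count as elongation factors, the difference of these medians in old vs young was 0.30, and 0.64 with the grouping by symbol.

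**Figure D3:**
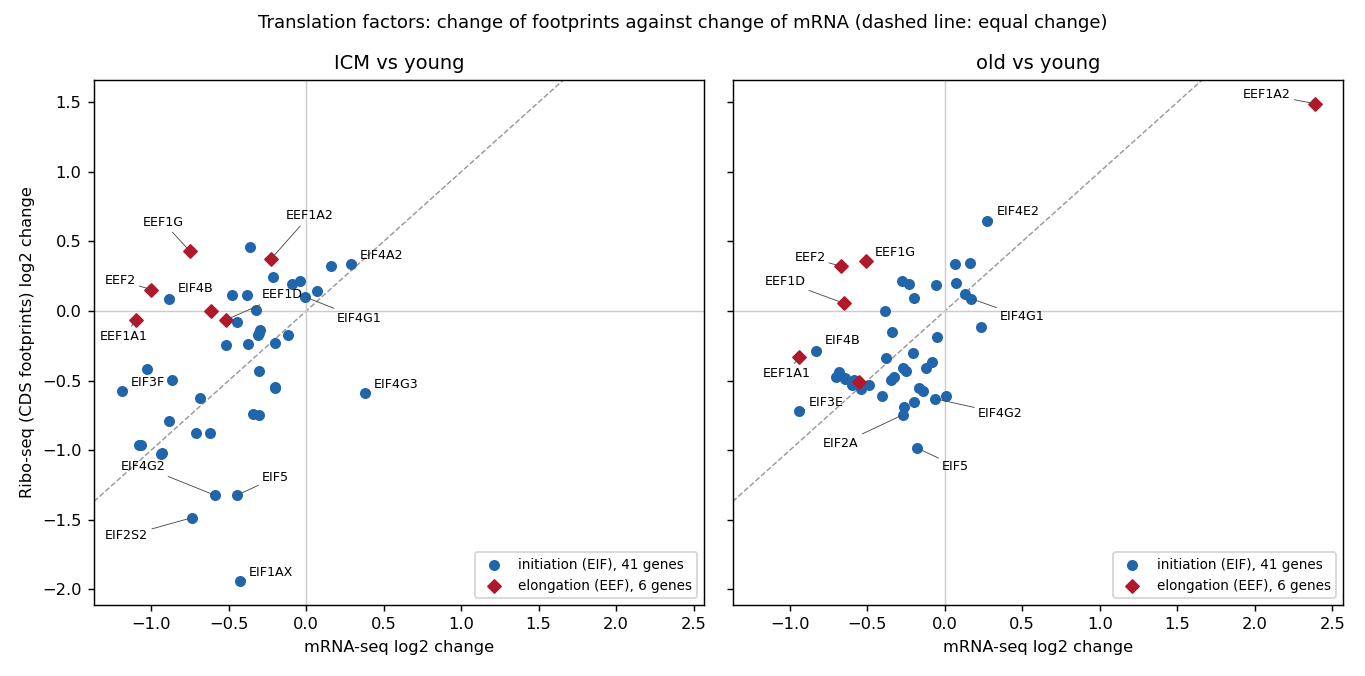
Fitted log2 change of CDS footprints (vertical axis) against that of mRNA (horizontal axis) for the 47 factors tested in both assays, in ICM vs young (left) and old vs young (right). Circles are initiation and diamonds elongation factors, and on the dashed line both changes are equal. Most points lie left of 0; EEF2 and EEF1G lie left of 0 and above it in both panels, and EIF5 lies below the line in both.

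EEF1A1, which delivers aminoacyl-tRNA, fell in mRNA in ICM and old cells, while its footprints did not pass in either. Its mRNA stood at 14997, 15789.8 and 14041 CPM in young, 7829, 8422 and 7111 in old and 7088, 7465 and 6402 in ICM lysates. Its footprints stood at 8012, 10479 and 10985 CPM in young, 7093, 7984 and 8514 in old and 9372, 9660.0 and 9335 in ICM cells. In mRNA no lysate of old or ICM cells reached the lowest young one (log2 change -1.10, SE 0.076, adjusted p = 1.41e-11 in ICM and log2 change -0.94, SE 0.076, adjusted p = 3.11e-10 in old), whereas the footprints of ICM and young lysates overlapped (log2 change -0.064, SE 0.15, adjusted p = 0.781). The ratio of footprint to mRNA CPM was 0.534, 0.664 and 0.782 in young, 0.906, 0.948 and 1.20 in old and 1.32, 1.29 and 1.46 in ICM cells, with no overlap of any groups. Translational efficiency rose in ICM cells (log2 change 1.04, SE 0.17, adjusted p = 0.000111) and did not pass in old cells (log2 change 0.62, SE 0.17, adjusted p = 0.0568), where it was called in 5 of 18 alternatives, DESeq2 (adjusted p = 0.0421) and the fit without the 3 lysates that stand apart (log2 change 0.54, SE 0.13, adjusted p = 0.03) among them.

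EEF2, which translocates the ribosome, also fell in mRNA without a call in footprints. Its mRNA was 2752, 2860.2 and 2732 CPM in young, 1823, 1549.8 and 1878 in old and 1389, 1427 and 1360.5 in ICM cells, and its footprints 3942, 3373 and 3711 CPM in young, 4124, 4276 and 5253 in old and 4094, 4283 and 3790.4 in ICM cells. The mRNA fell in ICM cells (log2 change -0.998, SE 0.07, adjusted p = 1.68e-11) and in old cells (log2 change -0.67, SE 0.069, adjusted p = 1.91e-08), and no old or ICM lysate overlapped a young one. Its ratios were 1.43, 1.18 and 1.36 in young, 2.26, 2.76 and 2.80 in old and 2.95, 3.00 and 2.79 in ICM cells. Every old and ICM ratio was above every young one, and the rise passed in both comparisons (log2 change 1.15, SE 0.17, adjusted p = 1.3e-05 in ICM and log2 change 0.98, SE 0.16, adjusted p = 0.000169 in old). EEF2 was called for translational efficiency under all 18 alternative settings in both comparisons, the fit without the 3 lysates that stand apart among them (log2 change 1.11, SE 0.14, adjusted p = 3.94e-06 and log2 change 0.99, SE 0.13, adjusted p = 1.12e-05).

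In the eEF1B complex the subunits differed. EEF1G, its scaffold, had mRNA at 2083, 1899.9 and 1695 CPM in young, 1395, 1389.6 and 1203 in old and 1129, 1198 and 1045 in ICM cells, and footprints at 1039.9, 865 and 875 CPM in young, 1097, 1066 and 1257 in old and 1187, 1214 and 1256 in ICM cells. Here mRNA fell (log2 change -0.75, SE 0.078, adjusted p = 1.51e-08 in ICM and log2 change -0.51, SE 0.078, adjusted p = 5.77e-06 in old) while every footprint value of old and ICM cells was above every young one, a difference that did not pass in footprints alone (log2 change 0.43, SE 0.18, adjusted p = 0.067 in ICM). Its ratios were 0.499, 0.455 and 0.516 in young, 0.786, 0.767 and 1.04 in old and 1.05, 1.01 and 1.20 in ICM cells, and translational efficiency rose in both (log2 change 1.14, SE 0.19, adjusted p = 0.000111 and log2 change 0.84, SE 0.18, adjusted p = 0.00487). The call in old cells was lost without young replicate 2, young replicate 3 or old replicate 3, with adjusted p up to 0.418.

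EEF1D, an exchange subunit, had ratios of 0.813, 0.935 and 0.936 in young, 1.36, 1.29 and 1.75 in old and 1.11, 1.25 and 1.75 in ICM cells. All old and ICM ratios exceeded the young ones, but neither difference passed (log2 change 0.46, SE 0.23, adjusted p = 0.331 and log2 change 0.70, SE 0.19, adjusted p = 0.0568). The difference in old cells was called in 6 of 18 alternatives, one of them without the 3 lysates that stand apart (log2 change 0.71, SE 0.17, adjusted p = 0.0211). EEF1B2, the other exchange subunit, had footprints of 512, 437 and 594 CPM in ICM cells against 555, 491 and 507 in young cells, with overlap, and fell in old cells (339.9, 322 and 384 CPM, log2 change -0.51, SE 0.18, adjusted p = 0.0261). This call was lost in 9 of 17 alternatives, with adjusted p up to 0.152. The mRNA of EEF1B2 and of EEF1D fell in both comparisons, by 0.61 and 0.52 in ICM and by 0.55 and 0.65 in old cells on the log2 scale.

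EEF1A2, the form of eEF1A known from muscle and neurons, was the factor with the largest rise in any comparison with young cells. Its mRNA was low, at 5.58, 5.36 and 6.96 CPM in young, 30.9, 28.0 and 35.7 in old and 5.60, 5.04 and 4.79 in ICM cells, and rose in old cells (log2 change 2.39, SE 0.12, adjusted p = 2.13e-13) without passing in ICM cells (log2 change -0.23, SE 0.17, adjusted p = 0.227). The direct difference between ICM and old cells passed as well (log2 change -2.62, SE 0.12, adjusted p = 2.02e-14). Footprints were 49.5, 44.7 and 51.5 CPM in young, 112, 151 and 173 in old and 49.3, 116 and 34.3 in ICM cells and rose in old cells (log2 change 1.49, SE 0.26, adjusted p = 3.46e-05), where they rested on 158, 7.5 and 84.5 reads. The mRNA of EEF1A1 fell in the same old lysates. The ratios of EEF1A2 were 8.87, 8.35 and 7.41 in young, 3.63, 5.38 and 4.86 in old and 8.80, 23.0 and 7.15 in ICM cells. Its lower translational efficiency in old cells (log2 change -0.85) did not pass and was called in 1 alternative, with no replicate block. Reads in the 3′ UTR of EEF1A2 numbered 10, 3 and 4 in old mRNA-seq libraries, 0, 1 and 0 in young and 0, 0 and 1 in ICM libraries.

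**Figure D4:**
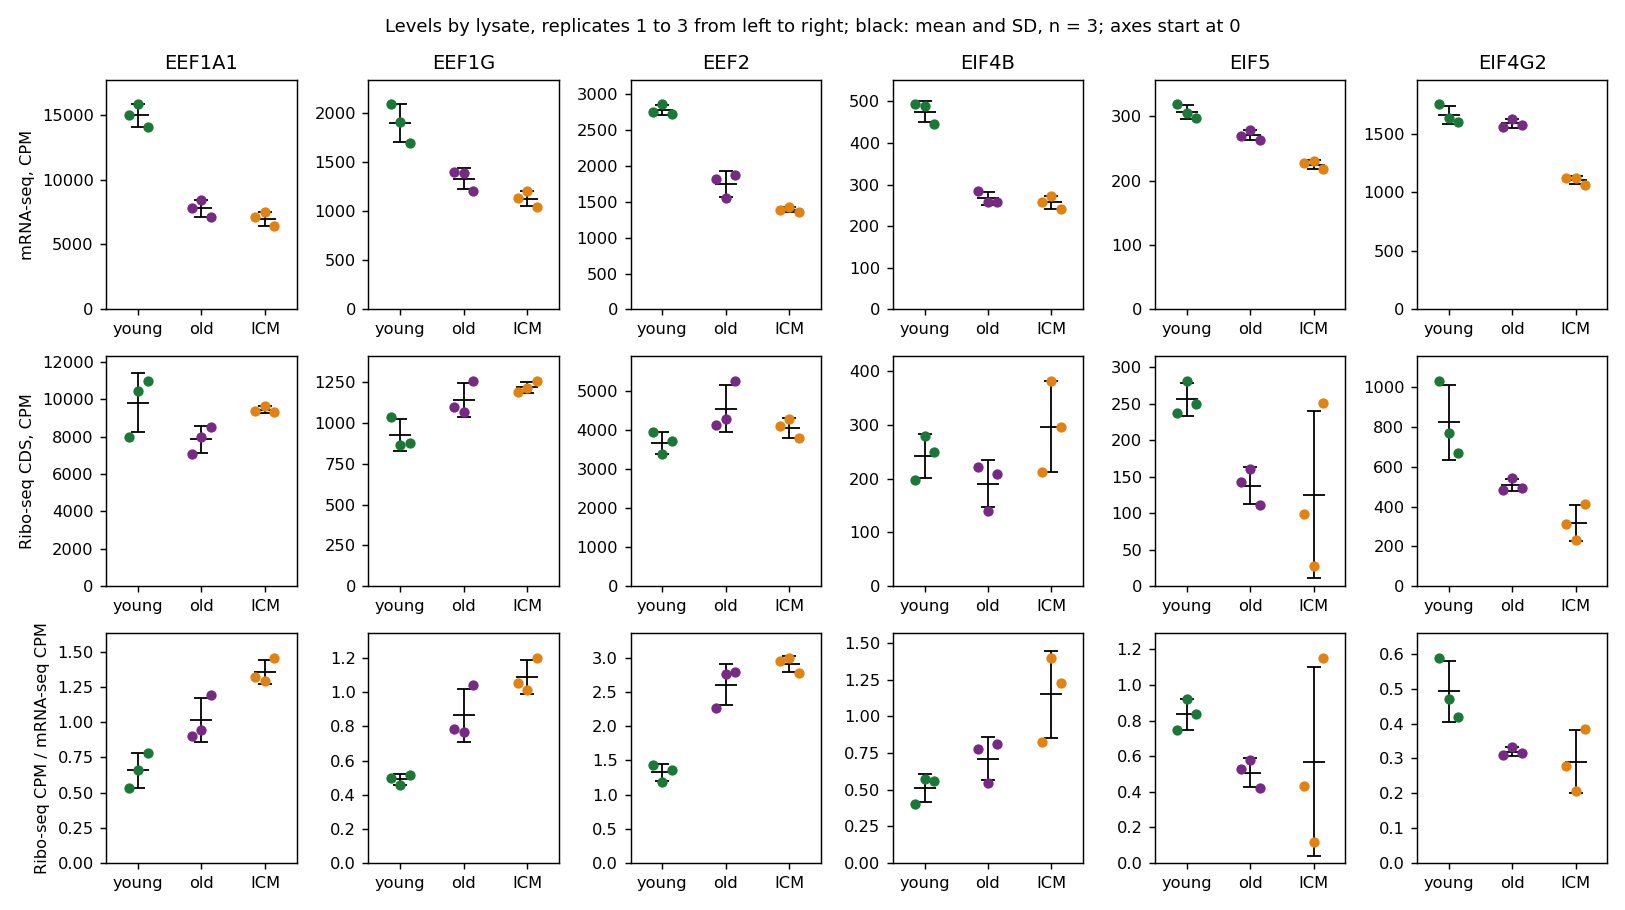
mRNA-seq level, Ribo-seq CDS level (both in CPM) and their ratio for 6 factors in each lysate of young, old and ICM cells. Points are replicates 1 to 3 and the black marks the mean and SD, with axes from 0. For EEF1A1, EEF1G and EEF2 the mRNA is lower and the ratio higher in every old and ICM lysate than in any young one, and for EIF4G2 the ratio is lower.

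All 14 eIF3 symbols, which stand for 13 subunits since EIF3C has a copy, fell in mRNA in ICM vs young, with a median log2 change of -0.65, and 12 fell in old vs young (median -0.40), where 36.1% and 33.7% of all genes fell. EIF3F had the largest fall of all factors in ICM cells. Its mRNA was 386, 375 and 352 CPM in young, 225, 229.8 and 230.1 in old and 158, 170.4 and 159.6 in ICM cells (log2 change -1.19, SE 0.061, adjusted p = 6.96e-14 in ICM and log2 change -0.70, SE 0.06, adjusted p = 8.99e-10 in old), so that the groups were ordered with no overlap. EIF3C and EIF3CL changed by -1.07 and -1.08 in ICM and by -0.65 and -0.64 in old cells, EIF3L by -1.03 and -0.68. EIF3E fell most in old cells (log2 change -0.94, SE 0.08, adjusted p = 7.89e-10), from 287, 272 and 253 to 137, 162 and 123 CPM. The smallest fall in ICM cells was that of EIF3B, at -0.20.

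In footprints, 5 of the 14 eIF3 symbols fell in each comparison, where 12.9% (ICM vs young) and 17% (old vs young) of all genes fell. Those in ICM cells were EIF3A, EIF3C, EIF3CL, EIF3E and EIF3M, of which EIF3C and EIF3CL count 1 signal. EIF3A, the largest subunit and a scaffold of the complex, had footprints of 535, 539.7 and 601 CPM in young, 359.8, 423 and 370.1 in old and 305, 364 and 228 in ICM cells, with no old or ICM library as high as a young one. The fitted changes in ICM cells were close in both assays (log2 change -0.88, SE 0.22, adjusted p = 0.003 for footprints and log2 change -0.71, SE 0.06, adjusted p = 4.17e-10 for mRNA), and its translational efficiency did not pass (log2 change -0.18, SE 0.23, adjusted p = 0.762). The footprint call of EIF3A in ICM cells was kept in 17 of 17 alternatives, with adjusted p from 0.000337 to 0.0299, and that of EIF3E was lost in 7 of 17, DESeq2 among them. For EIF3F the footprints overlapped between young and ICM libraries (277, 384 and 443 against 296, 191 and 297 CPM, log2 change -0.58, SE 0.24, adjusted p = 0.07).

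Of the 9 genes of eIF2 and eIF2B, 7 fell in mRNA in ICM cells and 4 in old cells, against 36.1% and 33.7% of all genes, with medians of -0.37 and -0.084. In ICM footprints the log2 changes of the eIF2 subunits ran from -1.49 to -0.74. Those of the 4 tested eIF2B subunits, none of which passed, ran from 0.15 to 0.46. The eIF2B changes rested on few ICM reads, 20 for EIF2B1, 26 for EIF2B3, 21 for EIF2B4 and 19 for EIF2B5. The eIF2 subunits had 32.5 to 39.5 ICM reads each. In mean footprint CPM per kb, EIF2B1 and EIF2B4 were lower in ICM than in young cells, while EIF2B3 and EIF2B5 were higher. The difference between both complexes was not tested. EIF2S2, the beta subunit, had 158, 332 and 394 CPM of footprints in young, 176, 221 and 262 in old and 113, 136 and 137 in ICM libraries, the lowest young value being that of replicate 1 with 8 reads. It fell in both comparisons (log2 change -1.49, SE 0.31, adjusted p = 0.000331 in ICM and log2 change -0.69, SE 0.21, adjusted p = 0.00953 in old), the second call being lost in 6 of 17 alternatives that include DESeq2 and the replicate block. Its mRNA also fell (log2 change -0.74, SE 0.065, adjusted p = 9.44e-10 in ICM). EIF2S3 and its copy EIF2S3B changed by -1.02 and -1.03 in ICM footprints and by -0.93 and -0.94 in ICM mRNA. EIF2S1, the subunit whose phosphorylation slows initiation, fell in ICM mRNA (log2 change -0.34, SE 0.066, adjusted p = 7.93e-05) and did not pass in footprints (log2 change -0.74, SE 0.30, adjusted p = 0.0676). Of the eIF2B subunits, EIF2B2 fell by 1.01 in ICM mRNA on the log2 scale, while EIF2B3 and EIF2B4 stood at -0.088 and 0.068 and did not pass.

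Of the 9 genes of the cap complex and its helpers, 3 rose and 5 fell in mRNA in ICM cells, where 34.9% of all genes rose and 36.1% fell, and 3 rose and 3 fell in old cells, where 32.4% rose and 33.7% fell. The helicase EIF4A1 fell in mRNA, with 644, 618 and 609 CPM in young, 416, 437 and 382 in old and 342, 348 and 335 in ICM lysates (log2 change -0.87, SE 0.062, adjusted p = 2.86e-11 in ICM). Its near copy EIF4A2 rose in ICM cells, from 192, 185 and 176 to 237, 219 and 218 CPM (log2 change 0.29, SE 0.074, adjusted p = 0.00144), with 191, 215 and 169.9 CPM in old cells. EIF4G3, a paralog of the scaffold EIF4G1, rose in both (log2 change 0.38, SE 0.06, adjusted p = 6.76e-06 in ICM and log2 change 0.24, SE 0.06, adjusted p = 0.00153 in old), whereas EIF4G1 stood at -0.01 in ICM cells and its rise of 0.17 in old cells was lost in 9 of 18 alternatives. The cap-binding EIF4E fell slightly in mRNA (log2 change -0.20, SE 0.068, adjusted p = 0.0118 in ICM and log2 change -0.17, SE 0.068, adjusted p = 0.0349 in old), the calls being lost in 1 and 9 of 18 alternatives. EIF4E2, a cap-binding repressor, rose in old cells (log2 change 0.27, SE 0.063, adjusted p = 0.000616), and its rise of 0.16 in ICM cells turned to -0.21 when only CDS reads of the mRNA were counted.

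EIF4B, a cofactor of the eIF4A helicase with a TOP-like start, rose in translational efficiency in ICM cells, as 3 elongation factors did. Its mRNA was 493, 489 and 446 CPM in young, 285, 259 and 257 in old and 257, 273 and 242 in ICM cells (log2 change -0.89, SE 0.067, adjusted p = 6.27e-11 in ICM and log2 change -0.83, SE 0.067, adjusted p = 2.95e-10 in old). Its footprints were 198, 279.7 and 249 CPM in young, 222, 141 and 209 in old and 212, 382 and 297 in ICM cells, with overlap between all groups. Its ratios were 0.402, 0.572 and 0.560 in young, 0.777, 0.543 and 0.814 in old and 0.823, 1.40 and 1.23 in ICM cells, and translational efficiency passed narrowly in ICM cells (log2 change 0.94, SE 0.26, adjusted p = 0.0438), a call kept in only 4 of 18 alternatives.

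EIF4G2, an eIF4G relative that lacks the binding site for EIF4E and is known for a GUG start codon, fell in footprints in both comparisons. Its mRNA stood at 1749, 1630.4 and 1603 CPM in young, 1560.2, 1627 and 1572 in old and 1119, 1123 and 1065 in ICM cells, and it fell in ICM cells (log2 change -0.59, SE 0.061, adjusted p = 1.25e-08) without passing in old cells (log2 change -0.066, SE 0.061, adjusted p = 0.348). Its footprints were 1030.0, 767 and 669 CPM in young, 485, 543 and 495 in old and 310.4, 232 and 411 in ICM cells, with no overlap between any groups. Both falls passed (log2 change -1.32, SE 0.23, adjusted p = 3.66e-05 in ICM and log2 change -0.63, SE 0.19, adjusted p = 0.00804 in old), the second being lost in 3 of 17 alternatives (no filter on low counts, without young replicate 2 and without old replicate 1), with adjusted p up to 0.0654. Every old and ICM ratio lay below every young one (0.589, 0.471 and 0.418 in young, 0.311, 0.334 and 0.315 in old and 0.278, 0.207 and 0.386 in ICM), and translational efficiency did not pass (log2 change -0.76, SE 0.23, adjusted p = 0.0702 and log2 change -0.57, SE 0.19, adjusted p = 0.168). Without the 3 lysates that stand apart it passed in ICM vs young (log2 change -0.90, SE 0.21, adjusted p = 0.0146).

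Among the factors of start site choice and subunit joining, 5 of 6 fell in ICM mRNA and 4 of 6 in old mRNA, against 36.1% and 33.7% of all genes. The 6 include the copy EIF1AY. EIF5, which makes eIF2 hydrolyse its GTP at the start codon, had mRNA at 319, 305 and 298 CPM in young, 269, 279 and 264 in old and 227, 230.4 and 218 in ICM cells (log2 change -0.45, SE 0.059, adjusted p = 5.72e-07 in ICM and log2 change -0.18, SE 0.059, adjusted p = 0.0102 in old). The fitted falls of footprints were larger. Footprints were 238, 281 and 249 CPM in young and 142, 161 and 111 in old libraries, with no overlap (log2 change -0.98, SE 0.22, adjusted p = 0.000797), and 98.5, 27.3 and 251 in ICM libraries, which rested on 20, 2 and 11 reads (log2 change -1.32, SE 0.33, adjusted p = 0.00291). The call in old cells was lost with DESeq2 and without young replicate 2, with adjusted p up to 0.0678. The ratios were 0.746, 0.922 and 0.838 in young, 0.529, 0.576 and 0.420 in old and 0.434, 0.118 and 1.15 in ICM cells, and translational efficiency did not pass (log2 change -0.90, SE 0.35, adjusted p = 0.177 and log2 change -0.81, SE 0.24, adjusted p = 0.102). Without the 3 lysates that stand apart it fell in both (log2 change -1.45, SE 0.35, adjusted p = 0.0228 in ICM and log2 change -0.84, SE 0.20, adjusted p = 0.0259 in old).

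EIF1AX, which binds beside eIF1 on the small subunit, had the largest fitted fall in footprints in ICM cells, but on few reads. Its footprints were 49.5, 129 and 124 CPM in young, 82.5, 40.2 and 79.0 in old and 32.0, 20.5 and 34.3 in ICM libraries, the last on 6.5, 1.5 and 1.5 reads (log2 change -1.94, SE 0.47, adjusted p = 0.00191). DESeq2 did not call it (adjusted p = 0.0542). Its mRNA fell in ICM cells (log2 change -0.43, SE 0.074, adjusted p = 2.27e-05) and stood at a log2 change of 0.0092 in old cells. EIF1 fell in mRNA in both comparisons, by 0.20 in ICM and 0.34 in old cells on the log2 scale. The call in ICM cells was lost without young replicate 1 and without the 3 lysates that stand apart, with adjusted p up to 0.0881. EIF1 also fell in old footprints (log2 change -0.50, SE 0.18, adjusted p = 0.033), a call lost in 9 of 17 alternatives. EIF1B, its paralog, fell in old mRNA (log2 change -0.33, SE 0.076, adjusted p = 0.000677) and stood at -0.041 in ICM cells.

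The eIF5A genes were split. EIF5A fell in mRNA in both comparisons, from 549, 555 and 589 CPM to 492, 452 and 463 in old and 425, 435 and 445 in ICM cells (log2 change -0.38, SE 0.06, adjusted p = 8.34e-06 in ICM and log2 change -0.27, SE 0.06, adjusted p = 0.000505 in old), with overlapping footprints (log2 change -0.24, SE 0.20, adjusted p = 0.409 in ICM). EIF5A2 rose in mRNA, from 26, 28.4 and 32.9 CPM to 34.4, 36.2 and 38.0 in old and 36.6, 34.4 and 38.2 in ICM cells (log2 change 0.32, SE 0.087, adjusted p = 0.00265 in ICM and log2 change 0.31, SE 0.087, adjusted p = 0.00364 in old), and had too few footprints for a test. Both rises of EIF5A2 were lost when only CDS reads of the mRNA were counted, with adjusted p of 0.106 and 0.225. EIF6, which keeps the large subunit from joining early, fell in mRNA (log2 change -0.48, SE 0.067, adjusted p = 1.2e-06 in ICM) and had footprints of 475, 348 and 305 CPM in young and 379, 327 and 411 in ICM cells, which overlapped. EIF2A, a factor of alternative initiation, fell in old footprints (log2 change -0.75, SE 0.26, adjusted p = 0.024), with overlapping libraries (79.2, 109 and 136 CPM in young against 81.8, 60.4 and 57.5 in old) and the call lost in 7 of 17 alternatives.

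Factors with and without a TOP-like start can be set side by side. In ICM vs young mRNA, 11 of the 13 with such a start fell and 1 rose (median log2 change -0.62), and 24 of the 31 with another start fell and 3 rose (median -0.31), where 36.1% of all genes fell and 34.9% rose. In old vs young, 12 of 13 fell (median -0.54), and 15 of 31 fell and 4 rose (median -0.14), where 33.7% of all genes fell and 32.4% rose. Over all genes tested for translational efficiency in ICM vs young, 1.36% were called up and the median was 0.063. Of the 12 factors tested with such a start, 3 rose (EEF1A1, EEF2 and EIF4B, median 0.38). The call of EIF4B was kept in only 4 of 18 alternatives. Of the 26 tested with another start, 1 rose (EEF1G, median 0.13), which is also on the list of known TOP mRNAs below. The 9 with no promoter entry belong to neither class. Of these, 8 fell in ICM mRNA (median -0.71), and 8 fell and 1 rose in old mRNA (median -0.40). None of them passed for translational efficiency in ICM vs young (median 0.13). The 13 include both EIF2S3 and its copy EIF2S3B, which count 1 signal under 2 symbols. A list of 9 factors known as TOP mRNAs, made with earlier results in view (EEF1A1, EEF1B2, EEF1D, EEF1G, EEF2, EIF3E, EIF3F, EIF3H and EIF4B), fell in mRNA in 9 of 9 in both comparisons, with medians of -0.88 and -0.67, and its median change in translational efficiency was 0.60 in ICM and 0.49 in old cells.

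ICM and old cells were also compared directly. In mRNA-seq 29 factors were lower in ICM cells (32.6% of all genes were called down) and 3 higher (30.7% were called up), with a median log2 change of -0.18. The falls included those of EEF1A2, described above, EIF4G2 (log2 change -0.53, SE 0.061, adjusted p = 1.13e-07) and EIF3F (log2 change -0.49, SE 0.061, adjusted p = 3.51e-07), and the rises were those of EIF1B, EIF4A2 and EIF4G3 (0.29, 0.23 and 0.14). Of these, EIF4G3 was lost in 8 of 18 alternatives (adjusted p up to 0.134), EIF4A2 in 2 (without old replicate 3 and without ICM replicate 1, up to 0.0768), and EIF1B with CDS reads only (0.224). In Ribo-seq EIF4G2 was the only call (log2 change -0.69, SE 0.24, adjusted p = 0.0453), where 7.62% of genes were called down, and none rose, where 5.79% were called up (edgeR, 1 at an unadjusted p under 0.05 and 0 by DESeq2). The EIF4G2 call was lost in 10 of 17 alternatives, DESeq2 among them. No factor passed for translational efficiency, where 0.152% of genes were called up and 0.195% down (edgeR, 4 factors up and 0 down at an unadjusted p under 0.05, and 0 by DESeq2).

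Footprints in the 5′ UTR were few for most factors and many for EIF5. Pooled over the 9 libraries, 154 of the 1029 5′ UTR and CDS footprints of EIF5 lay in the 5′ UTR, or 15.0% (12.8% to 17.3%, exact 95% binomial interval, counting error only). EIF5 mRNA is known for upstream reading frames in its leader. EIF4G3 had 6.23% (4.55% to 8.30%), EIF1AX 5.93% (3.98% to 8.46%), EIF4G2 4.43% (3.69% to 5.27%) and EIF2S2 4.33% (3.29% to 5.57%). EEF2 and EEF1A1 had 0.155% (0.103% to 0.224%) and 0.296% (0.246% to 0.353%). Over all genes the pooled share was 6.30%, with 3.30% in young, 9.70% in old and 3.41% in ICM cells. It was 52.4% in old replicate 2 and 2.48% to 14.5% in the other libraries. By condition the share of EIF5 was 16.1% in young (13.4% to 19.0%), 10.9% in old (7.56% to 15.0%) and 25% in ICM cells (13.2% to 40.3%, 11 of 44 reads), with overlapping intervals. All 11 of these reads lay in ICM replicate 1, beside its 20 CDS reads, while replicates 2 and 3 had 0 beside 2 and 11 CDS reads. In old cells the EIF5 interval included the 9.70% of all genes. In young and ICM cells it lay above the share of all genes.

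**Figure D5:**
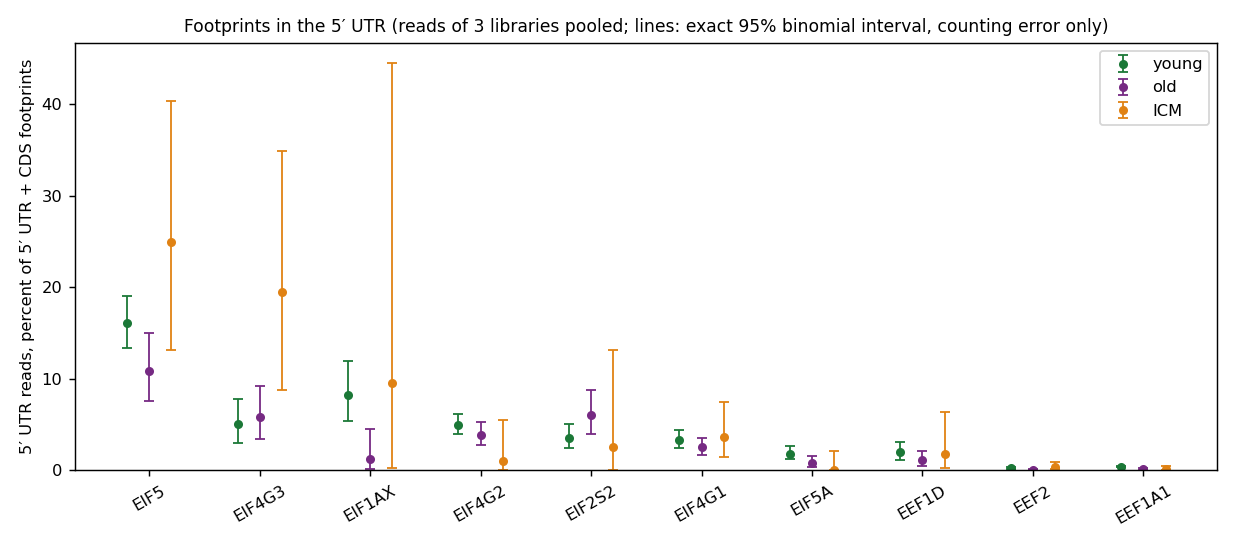
Percent of 5′ UTR and CDS footprints that lay in the 5′ UTR, for 10 factors, with the reads of the 3 libraries of a condition pooled and exact 95% binomial intervals. EIF5 stands highest at 16.1% in young cells, and EEF2 and EEF1A1 are close to 0. The ICM intervals are wide because of few reads, and the ICM value of EIF5 rests on replicate 1.

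Genes that act on these factors are read against the same shares of all genes, of which 34.9% rose and 36.1% fell in ICM mRNA, and 32.4% rose and 33.7% fell in old mRNA. Of 14 tested repressors and kinases of translation factors, 7 rose and 4 fell in ICM mRNA (median 0.14) and 5 rose and 6 fell in old mRNA (median 0.080). EIF4EBP1, the repressor of EIF4E that mTOR inactivates, had the largest fall, from 135 ± 11.9 CPM in young to 32.8 ± 1.40 in ICM cells (log2 change -2.04, SE 0.076, adjusted p = 2.16e-16) and 52.8 ± 2.79 in old cells (-1.36, SE 0.073, adjusted p = 3.2e-13). EIF2AK4, a kinase of eIF2 that senses amino acid lack, rose in mRNA in both (0.17 in ICM and 0.62 in old), but in footprints it fell in ICM (-1.34, SE 0.46, adjusted p = 0.0265) and rose in old cells (0.62, SE 0.23, adjusted p = 0.0342). Of 10 genes of mTOR signalling 4 rose and 2 fell in ICM mRNA (median 0.022), and 4 rose in old mRNA (median -0.017).

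The further lists, of 5 to 8 genes each, are set against the same shares. Of 6 other initiation helpers 3 fell in ICM and 4 in old mRNA. PABPC1, the poly(A)-binding protein, fell most (from 831 ± 62.2 CPM in young to 437 ± 35.9 in ICM cells, log2 change -0.93, SE 0.070, adjusted p = 7.2e-11). Of 5 genes of termination and recycling 3 fell in ICM mRNA, and 1 fell and 1 rose in old mRNA. GSPT1, the release factor eRF3a, fell in ICM mRNA (-0.59, SE 0.067, adjusted p = 5.68e-08) and footprints (-1.18, SE 0.30, adjusted p = 0.00337). Of 8 enzymes that modify eIF5A and eEF2, 1 rose and 3 fell in ICM mRNA, and 2 rose and 1 fell in old mRNA. DPH3, which helps to make the diphthamide residue of eEF2, had 50.9 ± 2.04 CPM in young cells and rose to 109 ± 6.99 with ICM and to 101 ± 8.22 in old cells (log2 change 1.11, SE 0.074, adjusted p = 7.49e-12, and 0.99, SE 0.074, adjusted p = 8.93e-11), while DHPS, which starts the hypusine modification of eIF5A, fell in ICM cells (-0.71, SE 0.091, adjusted p = 3.96e-07).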

How the data were processed

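The deposited tables give, per gene symbol, the 5′ UTR, CDS and 3′ UTR reads of each library as estimated counts, in which the authors divided reads that fit several genes, so that 14.1% to 23.2% of the values above 0 per library were not whole. The submitters' notes name STAR 2.6.0c, featureCounts and GRCh37; the annotation of these tables was not given in the sources used here. Values were rounded to whole numbers for the tests. Ribo-seq used CDS reads and mRNA-seq the sum of all 3 regions, scaled to a fixed library size (CPM) with TMM factors. The quasi-likelihood test of edgeR 4.0.16 (R 4.3.3, limma 3.58.1) was fitted over all 3 conditions in each assay after edgeR's filter on low counts, with Benjamini-Hochberg adjustment over all genes tested and a threshold of 0.05. Translational efficiency was the interaction of assay and condition, with the lysate as a replicate block, library sizes and factors being set per assay. The scripts were tested on simulated data with known changes, of which a smaller share was recovered in Ribo-seq and translational efficiency than in mRNA-seq.

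The 18 libraries were grouped by their labels, 3 per condition and assay. Alternatives were DESeq2 1.42.0, RLE scaling, no filter, only the conditions compared, the replicate block, CDS reads only for mRNA-seq, another threshold and grouping, and leaving out each lysate, lysates with a low CDS share, or the 3 that stand apart. The members and all gene lists (roles, TOP factors, repressors and kinases, mTOR signalling, initiation helpers, termination and recycling, modifiers of eIF5A and eEF2) were chosen with earlier results of these data known. Named were the main factors of each step, chosen by name (EEF1A1, EEF1A2, EEF1B2, EEF1D, EEF1G, EEF2, EIF1, EIF5, EIF2S1, EIF3A, EIF4A1, EIF4A2, EIF4E, EIF4G1, EIF4G2, EIF5A and EIF6), then up to 4 called rises and falls per measure against young, up to 2 in ICM vs old, and every call of translational efficiency. Other factors and the genes of the other lists were named after their values were seen. Coding lengths came from GENCODE (v44 mapped to GRCh37), since the protein table planned for this was not used here.

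Same-numbered samples of different conditions did not deviate together in every pair (r from -0.229 to 0.3 over 9 pairs in mRNA-seq and from 0.00146 to 0.037 in Ribo-seq). Both assays of a lysate come from the same cells, and r between them ran from -0.0725 to 0.118. A small r therefore cannot tell paired from unpaired samples. Intervals cover counting error only.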

Additional observations from a re-analysis of the deposited data

How the results depend on the processing

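The Ribo-seq counts depended most on the processing. The 11 factors called in ICM vs young became 18 at an adjusted p under 0.15, 6 with DESeq2, and 18 without the 3 lysates that stand apart, with 6 to 14 when 1 lysate was left out, 6 being without ICM replicate 1. The 17 called in old vs young became 28 at that threshold, 3 with DESeq2, 5 with no filter, 26 with only these conditions fitted and 3 with the replicate block, with 2 to 24 when 1 lysate was left out, 2 being without young replicate 2 or old replicate 1. The 1 call in ICM vs old became 5 at that threshold, 0 with RLE scaling, DESeq2, only these conditions or the replicate block, 2 with no filter, 3 without low-CDS lysates, 2 without the 3 lysates that stand apart and 2 with copies summed, and ran from 0 to 3 with 1 lysate left out. The last pair of settings was chosen after the data were seen.

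For translational efficiency the 4 calls in ICM vs young became 8 with no replicate block and 3 to 5 with 1 lysate left out. The 2 calls in old vs young became 5 at an adjusted p under 0.15, 4 with only these conditions, 10 with no replicate block and 5 without the 3 lysates that stand apart, and ran from 1 to 4 with 1 lysate left out, 1 being without young replicate 2, young replicate 3 or old replicate 3. Grouping by function moved the elongation minus initiation median to -0.11 in mRNA (ICM vs young), to 0.34 in Ribo-seq and to 0.30 in translational efficiency (old vs young), from -0.24, 0.62 and 0.64. With 1 lysate left out, that median ran from 0.059 to 0.29 in Ribo-seq (ICM vs old, 0.044 with all) and from 0.55 without young replicate 1 to 1.00 without ICM replicate 1 in translational efficiency (ICM vs young, 0.74 with all). The mRNA counts of 47, 40 and 32 ran from 44 to 47, 37 to 41 and 25 to 33 with 1 lysate left out. EIF4E2 in ICM vs young mRNA reversed to -0.21 with CDS reads only. The causes were not tested. Whether the replicate numbers of the labels pair the conditions within an assay was not settled, and the block changed the counts only as given here.

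With 46239 to 78980 CDS reads in 4 Ribo-seq libraries, factors such as EIF1AX and EIF5 rest on few footprints in ICM cells, and a factor without a call in Ribo-seq or translational efficiency was not shown to be unchanged.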
